A study of Mus musculus with 2 samples.

Results

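The apolipoproteins are the protein part of the particles that carry fat and cholesterol between tissues. They were examined here as 10 genes of 24354 in differentiating mouse ESCs, namely 9 apolipoprotein genes (Apoa1, Apoa2, Apoa4, Apob, Apoc1, Apoc2, Apoe, Apoh and Apom) and Mttp. They were taken by symbol, and the list was chosen by the FPKM values of these same libraries, known from earlier results, so the levels are a description with no test. In 1 library of Diff–CONT ESCs, 5 genes of this set (Apoa1, Apoa4, Apob, Apoc2 and Apom) had an FPKM above 2, and in 1 library labelled Diff–iKO they were under 1 or listed at 0. Mttp was lower there by 2.73-fold. Apoe and Apoc1 went the other way, at 1.70-fold and 2.72-fold of the Diff–CONT level.

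ESCs are embryonic stem cells. By the study's methods, both lines come from blastocysts homozygous for the floxed Ino80 2f allele. The iKO line also carries ROSA26-CreER, a recombinase expressed in most cell types that acts once 4-OHTM is given, and the control line, which GEO labels WT, carries no CreER. Both were kept in serum for 2 days, formed embryoid bodies (EBs), attached on day 4, and from the next day were cultured for 7 days in medium with BMP4 and 0.5 µM 4-OHTM. The genotype and the line therefore cannot be told apart, and the number of clones behind each line is not given in the sources used here. Each condition had 1 library, so the difference between them was not replicated and has no p-value. Levels are FPKM, a fragment count corrected for transcript length and library size, so that genes of different length can be compared.

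The visceral endoderm is the epithelium that surrounds the early mouse embryo and later lines the yolk sac. It takes up maternal nutrients and secretes them again as lipoproteins, much as liver and intestine do later. Apob is the scaffold of these particles and cannot leave the endoplasmic reticulum unless Mttp, the microsomal triglyceride transfer protein, loads it with lipid. Apoa1, Apoa2, Apoa4, Apoc1, Apoc2, Apoe and Apom are small proteins that join the particles or HDL afterwards and steer their lipases and receptors.

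The FPKM of Ino80, the targeted gene, was 8.90 under the Diff–CONT label and 10.3 under the Diff–iKO label, a log2 ratio of 0.21 with a counting interval of 0.11 to 0.31. This value covers the whole gene and does not resolve the exons between the loxP sites, so it does not check whether they were deleted. The whole-gene level was not lower under the knockout label, and directions below refer to the label. The study also checked the line by genotyping and qRT-PCR, which are not analysed here. About 27500000 fragments on genes were recovered for Diff–CONT and 21500000 for the library labelled Diff–iKO from the steps of the FPKM values. These give each member a number of fragments and a 95% interval (exact Poisson for a level, exact Clopper-Pearson for a log2 ratio). They describe counting error alone, without any spread between cultures.

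Promoters of 4 members are shown, because Apob and Apoa1 were the most abundant of the genes that were lower, Apoc2 was listed at 0, and Apoe lies in a cluster with Apoc2 and was higher. Each runs 5′ to 3′ along the gene, from 250 bases before to 50 bases after a RefSeq start (GRCm38.p6). Capitals mark the TATA box (TATAAA), a core of HNF1 sites (GTTAAT) and a core of nuclear receptor sites (AGGTCA), searched on both strands. These are Apob at chr12:7977427-7977726 (plus strand), Apoa1 at chr9:46228380-46228679 (plus strand), Apoc2 at chr7:19677892-19678191 (minus strand) and Apoe at chr7:19699139-19699438 (minus strand).
Apob: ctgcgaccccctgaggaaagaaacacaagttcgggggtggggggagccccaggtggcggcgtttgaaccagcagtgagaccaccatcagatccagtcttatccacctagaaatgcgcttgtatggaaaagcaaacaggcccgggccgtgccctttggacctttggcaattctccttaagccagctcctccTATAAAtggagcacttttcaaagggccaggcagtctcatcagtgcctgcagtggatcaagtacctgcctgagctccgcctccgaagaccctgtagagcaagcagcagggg
Apoa1: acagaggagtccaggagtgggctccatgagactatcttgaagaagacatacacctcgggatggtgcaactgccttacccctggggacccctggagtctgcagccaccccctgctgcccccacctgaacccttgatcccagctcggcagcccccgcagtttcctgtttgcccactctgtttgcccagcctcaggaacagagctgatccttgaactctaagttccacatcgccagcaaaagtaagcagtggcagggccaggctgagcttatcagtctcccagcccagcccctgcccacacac
Apoc2: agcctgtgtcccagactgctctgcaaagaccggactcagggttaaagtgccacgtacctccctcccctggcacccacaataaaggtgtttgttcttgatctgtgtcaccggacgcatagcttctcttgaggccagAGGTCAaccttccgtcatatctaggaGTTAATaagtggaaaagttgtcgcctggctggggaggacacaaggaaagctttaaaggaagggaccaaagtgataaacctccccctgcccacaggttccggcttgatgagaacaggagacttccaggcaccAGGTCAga
Apoe: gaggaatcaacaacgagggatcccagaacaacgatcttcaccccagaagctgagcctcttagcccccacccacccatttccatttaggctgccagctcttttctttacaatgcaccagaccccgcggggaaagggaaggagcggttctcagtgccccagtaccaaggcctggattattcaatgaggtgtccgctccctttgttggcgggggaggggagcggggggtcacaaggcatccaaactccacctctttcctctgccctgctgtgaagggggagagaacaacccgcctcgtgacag

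The sequences show what the search found and no more. Positions count from the start. The TATA box of Apob began at -60. The Apoc2 window held the HNF1 core at -89 and the nuclear receptor core at -115 and 43. The Apoa1 window and this Apoe window held none of these letters, which says nothing about the factors. Of the 10 members, 9 had 12 promoter windows in RefSeq. The TATA box lay in the windows of 3 genes (Apoa2, Apob and a further start of Apoe, where copies on both strands overlap), in 3 of the 12 member windows (25%), against 13.6% of all 32851 windows. The HNF1 core lay in 2 of the 12 (16.7%, Apoc2 and a further start of Apoe), against 7.1% of all windows, and the nuclear receptor core in 3 (25%, Apoa2, Apoc2 and Apoh), against 16.3%. A core of HNF4 sites (AAAGTCC) lay in 1 (8.33%, Apoa2), against 4.21%. A GATA site (AGATAA) lay in 0 of the 12, against 11.2%. With so few windows, each share rests on 3 or fewer.

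To describe how many members differed, the limits named in the study's methods were used, a fold of 2 and an FPKM of 2. The methods do not say how values near 0 were treated, so here no pseudocount was added and the FPKM limit had to be met in either library. Over all genes this gave 833 higher and 1038 lower, and with a pseudocount of 0.1 it gave 807 and 1002, while the counts of members were the same. Of the 10 members, 6 were lower past this cut-off under the Diff–iKO label, where 8.39% of the 12376 genes that reached FPKM 2 were lower, and 1 was higher, where 6.73% were. The other 3 did not pass it. Apoh never reached FPKM 2, and 5 of the 6 lower members reached it only in Diff–CONT ESCs. Nearest to the cut-off were Apoc1 (2.72-fold) and Mttp (2.73-fold) inside it, and Apoe (1.70-fold) and Apoa2 (1.22-fold lower) outside it.

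**Figure D1:**
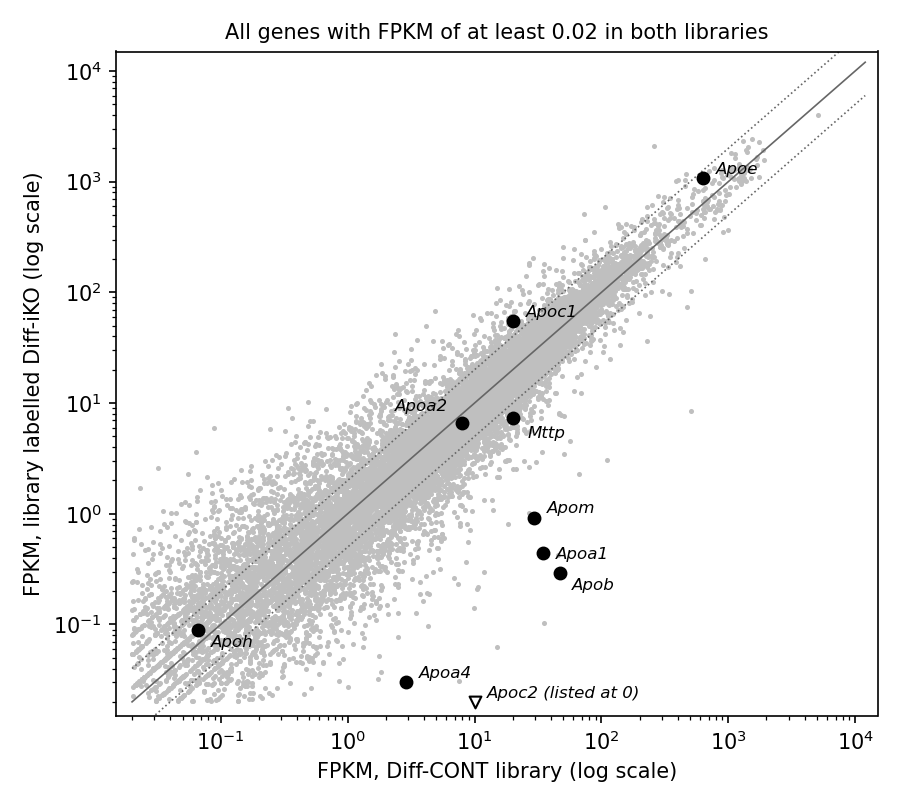
FPKM of every gene with at least 0.02 in both libraries, Diff–CONT on the x axis and the library labelled Diff–iKO on the y axis, both on log scales, with 1 grey point per gene, members labelled by name, a solid line at equal FPKM and dotted lines at a fold of 2. Apob (47.0 and 0.290), Apoa1, Apom and Apoa4 lie far below the lower dotted line, Apoc2, listed at 0 on the y axis, is drawn as an open triangle at the lower edge, and Apoe lies near the upper end of both axes.

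Apob, the scaffold of lipoproteins, was abundant in one library and near 0 in the other. Apob (chromosome 12 from 7977648 to 8016835) had an FPKM of 47.0 (interval 46.4 to 47.7, 19321 fragments) in Diff–CONT ESCs. Under the Diff–iKO label it was 0.290 (interval 0.233 to 0.356, 89 fragments). The log2 ratio was -7.34 (interval -7.66 to -7.05), a 162-fold lower level. It ranked 4 among the 1024 lower genes that were above 0 in the library labelled Diff–iKO, counted from the largest fall, but its interval overlapped those of Apoa1 and Apoa4, and Apoc2 at 0 has no ratio to rank. Among all genes, Apob moved from rank 1635 by FPKM to rank 14835.

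Mttp (chromosome 3 from 138089854 to 138144968), which loads Apob with lipid, had a smaller ratio. Its FPKM was 20.1 (interval 19.2 to 21.1) in Diff–CONT ESCs and 7.39 (interval 6.74 to 8.09) under the Diff–iKO label. The log2 ratio of -1.45 (interval -1.60 to -1.30) lay at rank 494 of those 1024 genes. About 477 fragments of Mttp remained, against 89 of the much longer Apob transcript (shortest RefSeq transcripts of 3072 and 13934 nucleotides).

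The genes of HDL proteins split. Apoa1, which encodes the main protein of HDL and activates the enzyme Lcat, was 34.8 (interval 32.6 to 37.2) in Diff–CONT ESCs. It was 0.444 (interval 0.192 to 0.874, 8 fragments) in the library labelled Diff–iKO, 78.5-fold lower, with a log2 ratio of -6.29 (interval -7.58 to -5.38). Apom, a lipocalin that carries sphingosine phosphate on HDL, was 29.6 (interval 27.4 to 31.8) and 0.923 (interval 0.538 to 1.48). Its log2 ratio was -5.00 (interval -5.79 to -4.31), and it lies on chromosome 17 from 35128997 to 35132050.

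Apoa2, the other abundant HDL apolipoprotein of liver, stayed close to its Diff–CONT level. Its FPKM was 7.96 (interval 6.29 to 9.93) and 6.54 (interval 4.82 to 8.67), and the interval of its log2 ratio (-0.28) ran from -0.83 to 0.25 and so included 0. Besides the start next to the coding exons on chromosome 1 (171225054), RefSeq places a start of Apoa2 at 171221564, inside the span of Tomm40l on the opposite strand. Tomm40l, a mitochondrial import gene, was 8.09 and 6.62. How reads over such genes were assigned is not given in the sources used here, so the Apoa2 value is uncertain.

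Apoa4, an apolipoprotein of chylomicrons, was low in Diff–CONT ESCs at 2.90 (interval 2.44 to 3.42, 141 fragments). In the library labelled Diff–iKO it rested on 1 fragment (FPKM 0.0301). The log2 ratio of -6.59 therefore had a wide interval, from -12.04 to -4.22. Apoh encodes a phospholipid-binding plasma glycoprotein of liver. It had 2 fragments in each library (FPKM 0.0666 and 0.0890), so a difference was not detectable at this depth. Exons of Apoa4, Apoh and Mttp overlap genes on the opposite strand, and whether counting used strand is not given in the sources used here.

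**Figure D2:**
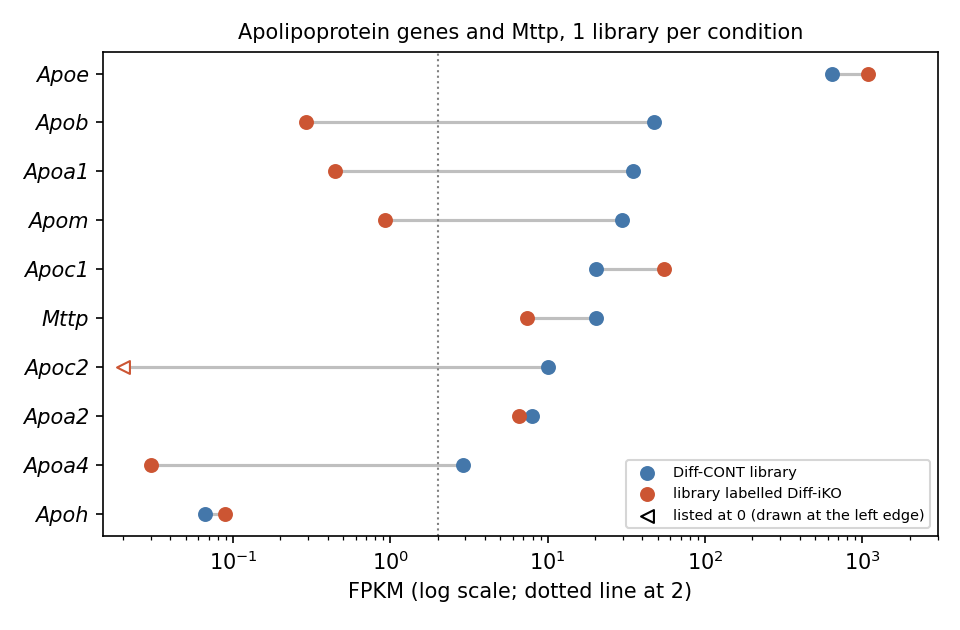
FPKM of the 10 members on a log scale, 1 point per library joined by a line, ordered by the Diff–CONT level, with a dotted line at FPKM 2. In the Diff–CONT library 9 members lie above the dotted line, and in the library labelled Diff–iKO only Apoe (1086), Apoc1 (55.0), Mttp (7.39) and Apoa2 (6.54) do, with Apoc2, listed at 0, drawn as an open triangle at the left edge.

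Within each library, the order of the levels differed. In the Diff–CONT library it ran from Apoe through Apob, Apoa1, Apom, Apoc1, Mttp, Apoc2, Apoa2 and Apoa4 to Apoh, and only the intervals of Apoc1 with Mttp and of Apoc2 with Apoa2 overlapped among neighbours. In the library labelled Diff–iKO it ran from Apoe through Apoc1, Mttp, Apoa2, Apom, Apoa1, Apob, Apoh and Apoa4 to Apoc2. There the neighbouring intervals from Mttp to Apoa2 and from Apom down to Apoc2 overlapped, so those neighbours were not separated beyond counting error.

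Apoe and Apoc1 were higher in the library labelled Diff–iKO. Apoe encodes the ligand by which remnant particles are taken up into cells, and many cells besides liver and yolk sac make it, macrophages and astrocytes among them. Its FPKM was 637 (interval 628 to 646) in Diff–CONT ESCs and 1086 (interval 1073 to 1100.01) in the library labelled Diff–iKO, where it was the gene of rank 48 among all genes, from rank 95. The log2 ratio was 0.77 (interval 0.74 to 0.80, which does not include 0), under the cut-off. Apoc1, a small lipoprotein protein that slows the uptake of particles, was 20.2 (interval 17.1 to 23.8) and 55.0 (interval 48.9 to 61.6). Its log2 ratio of 1.44 (interval 1.16 to 1.74) was past the cut-off, at rank 453 of the 823 higher genes that were above 0 in Diff–CONT ESCs.

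Apoe was so abundant that the summed FPKM of the members followed it. All 10 members summed to 810 in Diff–CONT ESCs and 1157 in the library labelled Diff–iKO. Apoe made up 78.7% of that sum in the former and 93.9% in the latter. Without Apoe and Apoc1, the sum of the other 8 was 153 and 15.7, 9.71-fold lower under the Diff–iKO label. Because both were higher there, leaving them out set the direction of the remaining sum, which is not a separate result.

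**Figure D3:**
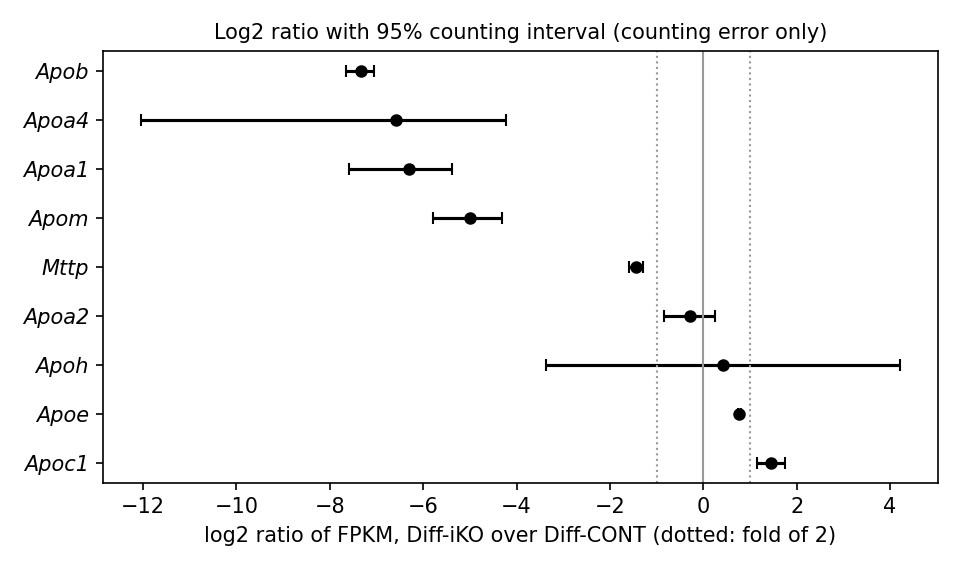
Log2 ratio of FPKM, the library labelled Diff–iKO over Diff–CONT, for the 9 members above 0 in both libraries, with bars for the 95% counting interval and dotted lines at a fold of 2. Apob, Apoa4, Apoa1 and Apom lie between -7.34 and -5.00, Mttp at -1.45, the intervals of Apoa2 and Apoh cross 0, and Apoc2, listed at 0, has no ratio.

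Of the members, 5 lie in a pair of gene clusters, and the Apoe cluster holds genes that differed in opposite directions. The Apoe cluster spans 27.6 kb of chromosome 7 (19671579 to 19699188) in the order Apoe, Apoc1, Apoc4 and Apoc2. Apoc2, the cofactor that lipoprotein lipase needs, was 10.04 (interval 8.29 to 12.1) in Diff–CONT ESCs. It was listed at 0 in the library labelled Diff–iKO, where 1 fragment would have been worth an FPKM of 0.118. It was among 14 lower genes listed at 0 there. The starts of Apoc1 and Apoc2 lie 6.53 kb and 21.2 kb from that of Apoe, and Apoc4 between them had 0 and 1 fragments. Apoc2 shares exon sequence with Gm44805, an annotated gene on the same strand, so its value is uncertain. Of the genes that flank the cluster, Tomm40 was 50.9 and 79.5 and Clptm1 was 41.0 and 42.8, neither past the cut-off.

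In the Apoa1 cluster, which spans 43.3 kb of chromosome 9 (46228580 to 46271919), all 4 genes were lower or at 0 in the library labelled Diff–iKO. Apoa1 and Apoa4 are described above. Apoc3, an inhibitor of triglyceride clearance, was 0.244 (2 fragments) in Diff–CONT ESCs and was listed at 0 in the other. Apoa5, an activator of that clearance, was 0.218 (14 fragments) and was likewise listed at 0. Neither reached FPKM 2. The flanking genes Sik3 (13.0 and 12.3) and Zpr1 (18.2 and 26.1) were not past the cut-off.

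**Figure D4:**
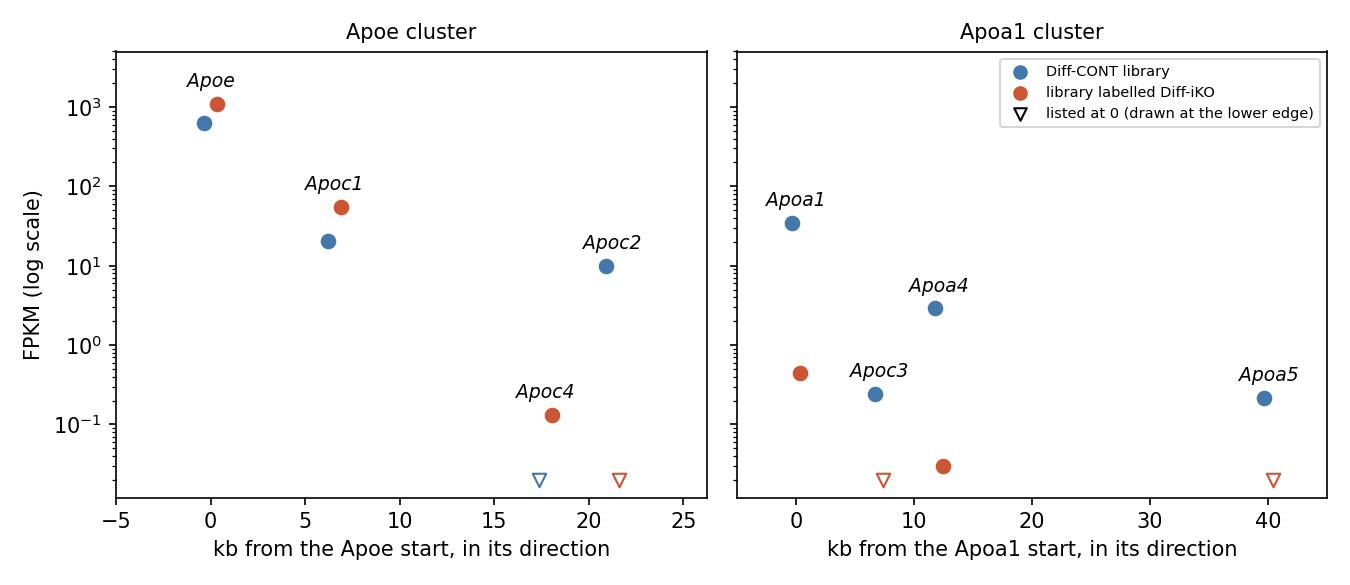
FPKM on a log scale against the distance in kb of each gene's start from the start of Apoe (left) or Apoa1 (right), measured in the direction of that gene, with the points of the libraries set slightly to either side of the start and triangles at the lower edge for genes listed at 0. Apoe and Apoc1 are higher and Apoc2 is at 0 in the library labelled Diff–iKO, while the Apoa1 cluster holds no gene above 0.444 there.

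Markers of visceral endoderm, a cell type in which these genes are known, were looked up. Of 20 markers, 18 reached FPKM 2. Of these 18, 16 were lower past the cut-off under the Diff–iKO label and 1 was higher, beside 8.39% and 6.73% of all such genes. The other 3 of the 20 were neither. The summed FPKM of the 20 was 926 in Diff–CONT ESCs and 70.5 in the library labelled Diff–iKO. Spink1, a trypsin inhibitor, made up 508 and 8.57 of these sums. The median log2 ratio of FPKM + 0.1 over the 19 with a mean FPKM of at least 1 was -2.70, beside -0.01 over all 13145 such genes. Afp, the fetal albumin, was 45.9 and 0.422, Ttr, a carrier of thyroid hormone, was 66.7 and 2.28, and Rbp4, the retinol carrier, was 111 and 3.05. Against the others, Trf, the iron carrier transferrin, was higher (4.18 and 11.2). Lrp2, an endocytic receptor, was 29.9 and 20.9, and Pdzk1 and Slc2a2 did not reach FPKM 2. In bulk RNA, fewer cells of a type and less RNA per cell cannot be told apart.

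Markers of undifferentiated cells moved the other way. All 7 markers of pluripotent cells reached FPKM 2, and 6 were higher past the cut-off, beside 6.73% of all such genes. Pou5f1, among them, was 60.8 and 247. Sox2 was 42.7 and 68.2 and was not past the cut-off. The summed FPKM was 396 in Diff–CONT ESCs and 2590 in the library labelled Diff–iKO. Most of it was Dppa5a (258 and 2115), so the sum mainly followed that gene. The median log2 ratio over the 7 was 2.14, beside -0.01 over all genes filtered in the same way. The part of this difference in the levels of the members was not tested.

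Among markers of macrophages, in which Apoe and Apoc1 are also known, only 2 of 15 reached FPKM 2. Both were higher past the cut-off, beside 6.73% of all such genes, and carried most of the summed FPKM of 15.7 and 40.4. These were Csf1r (2.91 and 12.8) and Cd68 (10.5 and 27.1). The other 13 were under FPKM 1 in both libraries and so could not pass the cut-off in either direction. Among them Mrc1 was lower (0.785 and 0.087, on 122 and 10 fragments) and Spi1 was not (0.145 and 0.233, on 8 and 10). The defining markers Ptprc (0.0734 and 0.00893), Adgre1 (0.0109 and 0.0146) and C1qa (0 in both) were at or near 0. The part of macrophages in the levels of Apoe and Apoc1 was not tested. For parietal endoderm, the other extraembryonic endoderm, 9 of 10 markers reached FPKM 2. Of these, 2 were lower and 0 were higher past the cut-off, beside 8.39% and 6.73% of all such genes. The lower ones were Pth1r, a hormone receptor (19.2 and 5.99), and Fst, an activin inhibitor (8.54 and 3.42). The median log2 ratio over the 10 was -0.03. Their summed FPKM of 1592 and 2513 was carried by abundant matrix genes such as Sparc (708 and 1244) and Col4a1 (327 and 575), neither past the cut-off.

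Many transcription factors of endoderm, some of which apolipoprotein genes are known to depend on, were lower. Of 26 factors of endoderm and lipid metabolism, whose part in the members' levels was not tested, 18 reached FPKM 2. Of these 18, 11 were lower past the cut-off and 1 was higher, beside 8.39% and 6.73% of all such genes. The median log2 ratio was -1.56 over the 19 with a mean FPKM of at least 1, beside -0.01 over all genes with such a mean. Hnf4a, the nuclear receptor needed for the visceral endoderm to express apolipoproteins, was 4.33 (540 fragments) and 0.0963 (9 fragments). Its log2 ratio of -5.49 (interval -6.63 to -4.55) lay between those of Apoa1 and Apom. Sox17 was 5.36 and 0.317, and Gata4 was 20.1 and 2.56. Foxa1, Foxa2, Foxa3, Gata6, Nr2f1, Nr2f2 and Prox1 were lower too. Hnf4a, Foxa2, Gata4, Gata6 and Sox17 are among the genes that the marker list also holds. Nr5a2, a nuclear receptor of both liver and ESCs, was higher (1.17 and 6.87). Nr1h2 and Rxra, the partners that drive Apoe in cholesterol-loaded cells, were 29.2 and 42.5 and 15.8 and 12.4, neither past the cut-off.

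**Figure D5:**
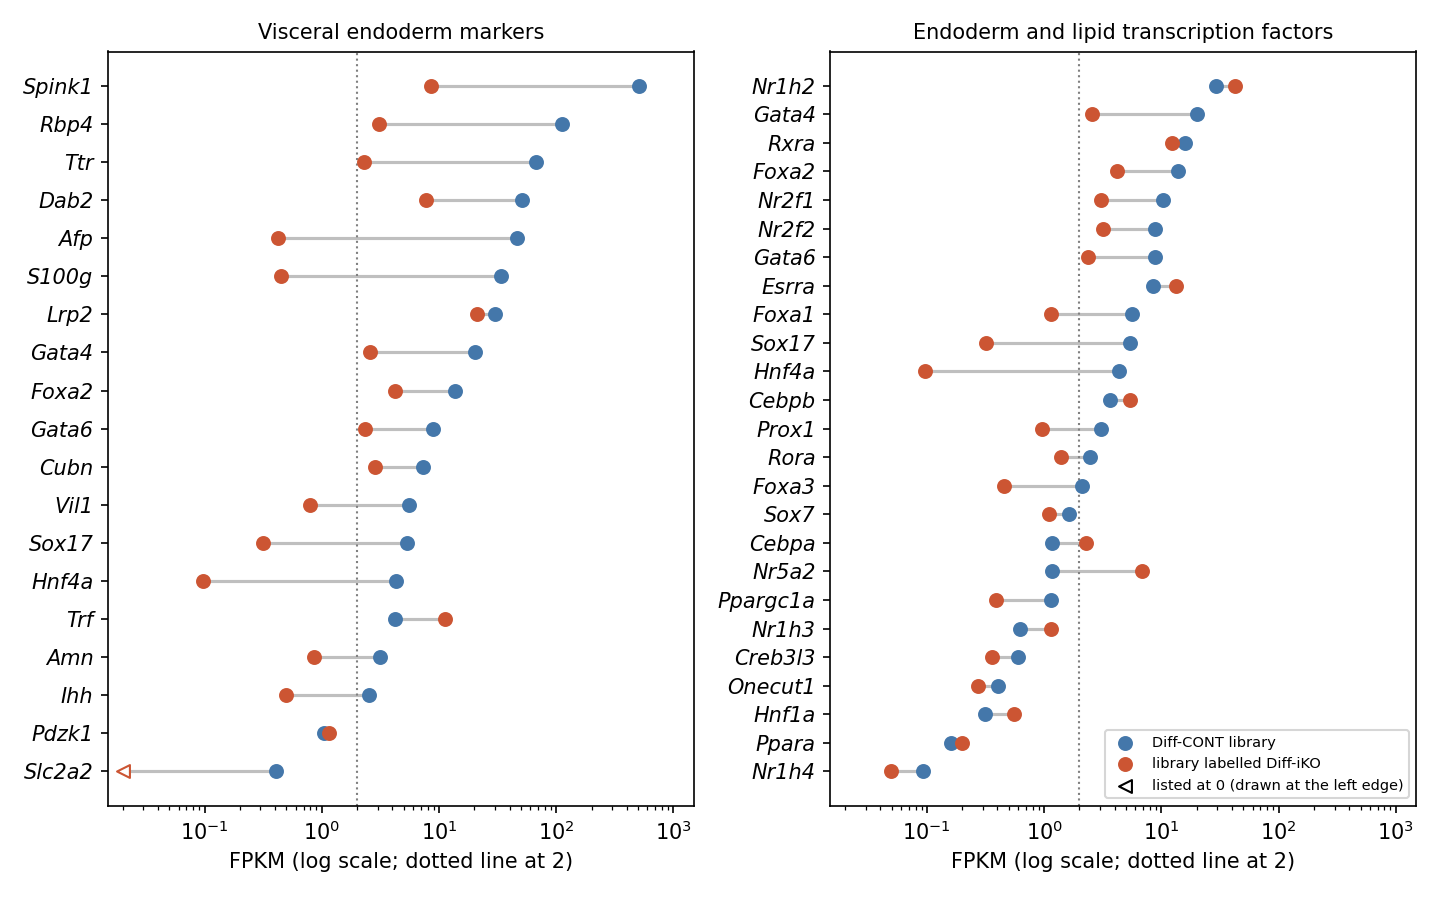
FPKM on log scales of visceral endoderm markers (left) and transcription factors (right), 1 point per library joined by a line, with a dotted line at FPKM 2. Most markers and the factors Hnf4a, Sox17 and Gata4 lie lower in the library labelled Diff–iKO, while Trf and Nr5a2 lie higher.

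Of 20 genes that assemble, export or edit lipoproteins, 14 reached FPKM 2, and of these 2 were lower past the cut-off and 1 was higher, where 15.1% of all genes that reached FPKM 2 were past it in either direction. For these genes the median log2 ratio was 0.14 over 14 genes. Both lower genes, Mogat2 and Soat2, encode enzymes that make lipids, but others of this kind on the list were not past the cut-off. Those were Dgat1 (14.9 and 21.2), Dgat2 (7.03 and 4.36) and Soat1 (43.9 and 31.5). Mogat2, which builds diacylglycerol in enterocytes, was 30.6 and 2.92, and Soat2, which makes the cholesterol esters of Apob particles, was 8.09 and 1.56. The broadly expressed P4hb, the smaller subunit of the Mttp complex, was 517 and 625, and the cargo receptor Surf4 was 119 in both libraries. Apobec1, the deaminase that edits Apob mRNA to its shorter form, was higher (1.04 and 2.86, log2 ratio 1.47, interval 1.03 to 1.93) where Apob itself was near 0. Its partner Rbm47 was 3.40 and 5.75, and the other partner A1cf had 5 and 0 fragments.

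Of 14 receptors and uptake genes, all of which reached FPKM 2, 2 were lower and 1 was higher, beside 15.1% of all such genes in either direction, with a median log2 ratio of -0.08. Vldlr, a receptor for Apoe-rich particles, was among the lower genes (13.9 and 3.72). Apobr, a receptor for particles that carry Apob, was higher (3.23 and 12.9). Lrp1, a receptor for remnant particles, was 81.7 and 80.2 and not past the cut-off.

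Of 15 lipases and genes of HDL remodelling, 9 reached FPKM 2, of which 1 was lower and 2 were higher, beside the 8.39% and 6.73% of all such genes. The median log2 ratio was 0.73 over 9 genes, and 0.33 without the filter on low values. Lpl, the lipase that Apoc2 activates, was lower (14.4 and 5.91). Angptl4, which inactivates Lpl, was higher (1.77 and 10.7), as was Abcg1, a cholesterol exporter to HDL (3.29 and 6.89). Bmp1, the protease that cuts the Apoa1 precursor, was 116 and 232, at a fold of 1.996 just under the cut-off.

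Of the 18 apolipoprotein genes that are not members, 14 were under FPKM 1 in both libraries. The other 4 reached FPKM 2, and 1 of them was higher past the cut-off, beside 6.73% of all such genes. It was Apod, a lipocalin of connective and nervous tissue (2.03 and 4.44). Clu, also called apolipoprotein J, was 132 and 235, a log2 ratio of 0.83 (interval 0.78 to 0.88) close to the 0.77 of Apoe. The mitochondrial Apoo was 8.39 and 12.7 and Apool was 19.2 and 10.5, neither past the cut-off.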

How the data were processed

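Poly(A) RNA of 1 Diff–CONT and 1 Diff–iKO library was sequenced in pairs after stranded library preparation (1 µg of RNA each). The authors deposited FPKM values of 24354 genes, with 0 further columns of values. Per the labels and the methods, reads were mapped to mm10 with STAR 2.7.9a and FPKM came from Cuffquant and Cuffnorm (Cufflinks 2.2.1). Annotation and strand setting are not given in the sources used here.

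From the FPKM values, the log2 ratio of the 2 libraries was taken per gene. Genes counted as higher or lower had a fold of 2 or more, with no pseudocount, and reached an FPKM of 2 in either library. List medians used FPKM + 0.1 where the mean FPKM was 1 or more.

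Fragments were recovered from FPKM steps of 10484 genes that have a single RefSeq transcript, no shorter than 1000 nucleotides. FPKM times length less 190 nucleotides was whole, within 0.2, for 87.3% (Diff–CONT) and 88.1% (Diff–iKO) of values up to 6 fragments, against 40% by chance. The shortest RefSeq transcript gave each gene's approximate fragments. Coordinates come from GENCODE vM21 (GRCm38), which held 23315 of the symbols, and promoters from RefSeq (GRCm38.p6).

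The members and lists were chosen with earlier results of these data known. Named genes were all members, list genes past the cut-off or with the highest FPKM, cluster neighbours and the 3 genes nearest to Apob, not all of which are printed. Tomm40l, and list genes printed beyond this rule, were named after their values were seen. The marker lists covered visceral and parietal endoderm, hepatocytes, intestinal epithelium, macrophages, astrocytes and pluripotent cells. The values of 3 list genes are not reported here and 1 of them is not drawn, though the list counts include them. The steps were tested on simulated data. Calculations used scipy 1.17.1, numpy 2.4.6 and pandas 2.3.3 in Python 3.11.15, and plots matplotlib 3.10.9.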

Additional observations from a re-analysis of the deposited data

How the results depend on the processing

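With 1 library per condition no library was left out and the spread between replicates is unknown. No paired analysis was possible because each condition had 1 library. The values that rest on the fewest fragments are the least precise, those of Apoa4 and Apoc2 under the Diff–iKO label and of Apoh in both libraries.

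The 9 log2 ratios of members kept their sign in all 5 alternatives of pseudocount and scaling. With a pseudocount of 1 the ratio of Apob was -5.22, of Apoa1 -4.63, of Apom -3.99 and of Apoa4 -1.92. Scaling to the same sum shifted every log2 ratio by -0.09 and the median of all genes to -0.10. Of 22 counts of members, 19 stayed within 1.5 times the value given. When FPKM ≥ 2 was asked of both libraries 1 member was lower, and the number of higher members was 2 at a fold of 1.5 and 0 at a fold of 4. The counts over all genes were 2794 higher and 2761 lower without a filter, 488 and 569 with FPKM ≥ 2 in both libraries, 1846 and 2177 at a fold of 1.5, and 278 and 237 at a fold of 4. With FPKM ≥ 5 the lower genes were 671. Of 49 list medians, 6 moved, as given here. Without a filter the medians of the lipases and of the transcription factors were 0.33 and -0.69. With a pseudocount of 1 those of the transcription factors and of the visceral endoderm markers were -1.09 and -1.92. The median of parietal endoderm, -0.03 as given, was 0.0352 with the mean FPKM set to 5 or more and -0.13 when scaled to the same sum. The planned sum over rows of one symbol changed nothing, since no symbol occurs more than once.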

Other observations

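Of 16 hepatocyte markers, 11 were under FPKM 1 in both, Alb among them with 3 and 2 fragments, and 4 reached FPKM 2. The 2 past the cut-off were both lower in the library labelled Diff–iKO, beside 8.39% of all genes that reached FPKM 2. They were Fgb, a fibrinogen chain (FPKM 9.30 and 0.707), and Tdo2, an enzyme of tryptophan breakdown (7.60 and 0.0308, on 736 and 2 fragments). The log2 ratio of Tdo2 was -7.95, and its counting interval (-11.16 to -6.25) includes the -7.34 of Apob.

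Of 8 markers of intestinal epithelium, 6 were under FPKM 1 in both libraries and only 1, the homeobox gene Cdx2, reached FPKM 2. Cdx2 was lower past the cut-off (4.00 and 0.705), as were 8.39% of all genes that reached FPKM 2. Cdx1 of the same family was 0.405 and 1.68 and did not reach FPKM 2. Of 7 astrocyte markers, 4 reached FPKM 2, of which 1 was higher past the cut-off, beside 6.73% of all such genes. It was the filament gene Gfap (0.896 and 3.70), while Fabp7 was 98.1 and 100.3.

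Among the 11161 genes with FPKM ≥ 2 in both libraries, those nearest to Apob by distance over log2 FPKM in the 2 libraries were Ttr (distance 3.02), Cyp26a1, which breaks down retinoic acid (3.30), and Cpm, a carboxypeptidase (3.31). Apob itself was under FPKM 2 in the library labelled Diff–iKO, so genes with so low a level there were not candidates. Cyp26a1 was 26.6 and 2.65 and Cpm was 15.5 and 2.16.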
